A study of Oryza sativa Japonica Group with 27 samples.

Results

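The messenger RNA population of untreated rice shoots was described from 7 of the 27 samples of the series. They are the custom-primer readings of the 7 libraries made without dimethyl sulfate (DMS) and without streptavidin purification, chosen from the labels alone. All 7 came from shoots of 14-day-old plants of the japonica cultivar Nipponbare, germinated in dishes and then grown in soil, and the RNA was poly(A)-selected before reverse transcription. Structure-seq2 compares RNA treated with DMS, which methylates unpaired adenine and cytosine, with untreated RNA, and the 7 libraries belong to the untreated side.

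The libraries fall into 6 kinds. The standard protocol has 2 replicates, with RNA denatured at 90 °C with salt, reverse transcription at 55 °C, T4 DNA ligase, Q5 polymerase and purification on polyacrylamide gels. Each of the other 5 libraries carries a named change: biotin added with gels kept (biotin only), Ex Taq in place of Q5 (Ex Taq), denaturation at 65 °C without salt (low RT denaturation), reverse transcription at 50 °C (low RT reaction), and final purification on agarose (agarose). Low RT denaturation thus differs from the standard in both temperature and salt. The labels do not say that the libraries came from separate plants. In an SD over the 7, changes of protocol, technical spread and any variation between plants cannot be told apart.

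As background, messenger RNA of a green leaf is usually dominated by nuclear genes that supply the chloroplast, such as the small subunit of Rubisco and the chlorophyll-binding antenna proteins. Many of these belong to families of near-identical copies, whose reads a short-read mapper cannot always tell apart. The tables carry transcript identifiers of the kind used by the Rice Annotation Project, in which the first digits give the chromosome, the next digits the locus in its order along it, and the suffix after the dash the transcript. The files do not pair identifiers with gene names, and the RefSeq table at hand holds the identifier of 1 locus, which had 0 counts in the 7 libraries. Loci are therefore given by identifier, no name or function is attached to them, and the labelled tissue was not checked against marker genes.

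Library totals ran from 106715 counts (agarose) to 337468 counts (biotin only), with a median of 272353. One count was thus worth 2.96 to 9.37 counts per 1000000 (CPM), and a count of 0 allowed up to 8.89 to 28.1 CPM (3 counts). Such limits hold for counting error alone, because no molecular identifiers are described. CPM was taken on the count of a locus, summed over its transcripts, and on the total of its library. It is a share of the counts and was not divided by transcript length, so it does not rank genes by number of RNA molecules.

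Of 35679 loci listed, 23355 had a count in at least 1 of the 7 libraries, and 10025 had one in every library. Those 10025 loci held 93.7% of the counts in the mean of the 7. A further 3035 loci were counted in a single library and held 0.191%, and 12324 loci had no count in any. Absence at these totals is not absence from the shoot, and in bulk tissue a gene read in few cells cannot be told apart from one with little RNA in every cell. Thinned to 106715 counts, the total of the shallowest library, the 7 libraries showed 13605 ± 176 loci (SD, n = 7), from 13370 to 13822. Detection at equal depth thus varied little between the libraries, although the unthinned numbers ran from 13759 to 18068.

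Counts were spread over many loci, with no locus above 2% of a library. The most counted locus took 1.56% ± 0.189 of a library (SD, n = 7), from 1.29% to 1.80%. The 10 most counted loci of each library took 9.44% ± 0.519, the first 100 took 28.2% ± 1.48 and the first 1000 took 57.1% ± 1.45 (SD, n = 7 each). It took 615 ± 71.2 loci (SD, n = 7) to reach 50% of the counts, from 524 in low RT reaction to 754 in Ex Taq, and 6796 ± 230 loci to reach 90%. In the mean of the 7 libraries, 103 loci reached 1000 CPM and held 28% of the counts. Another 1530 loci between 100 and 1000 CPM held 36.1%, and 9661 loci between 10 and 100 CPM held 31.9%.

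**Figure D1:**
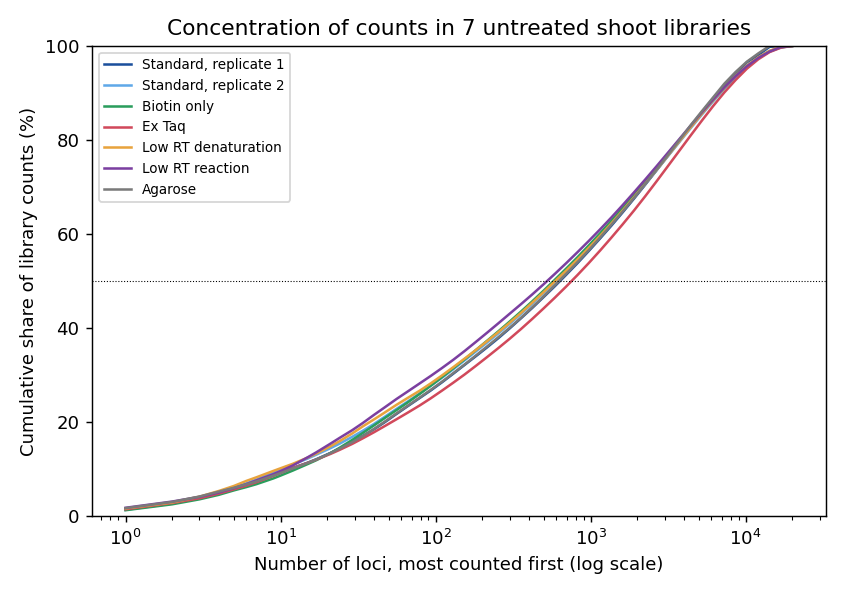
Cumulative share of the counts of each library (%, vertical axis) against the number of loci taken from the most counted downwards (log scale, horizontal axis), 1 line per library. The 7 lines lie close together and cross the dotted line at 50% between 524 and 754 loci.

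The same few loci stood at the head of every library, in an order that changed. The 30 loci with the highest mean CPM held 16.4% ± 1.14 of the counts (SD, n = 7), from 15% to 18%. Each library shared 9 or 10 of its own first 10 loci with the first 10 of the mean, and 7 loci were among the first 10 in all 7 libraries. Of the first 30 loci of the mean, 17 were among the first 30 of every library, while 49 loci reached the first 30 of some library. The first place itself went to 5 loci: to OS01T0600900 in standard replicate 1, low RT reaction and agarose, to OS03T0592500 in standard replicate 2, to OS12T0274700 in biotin only, to OS07T0529600 in Ex Taq and to OS08T0435900 in low RT denaturation.

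OS01T0600900, on chromosome 1, had the highest mean, 12963 ± 4138 CPM (SD, n = 7). Its values were 15781 and 12314 CPM in the standard replicates, 9577 in biotin only, 7170 in Ex Taq, 10630 in low RT denaturation, 18009 in low RT reaction and 17261 in agarose. The highest library was thus 2.51-fold above the lowest, and the locus was as low as rank 8 in 1 library. OS12T0274700, on chromosome 12, was second with 11671 ± 1440 CPM. Its values of 11228 and 11835 CPM in the standard replicates, 12872 in biotin only, 13324 in Ex Taq, 12682 in low RT denaturation, 9335 in low RT reaction and 10420 in agarose kept it within the first 4 places everywhere. The 2 loci were ordered differently in different libraries, and their means lay closer than 1 SD of the first. OS03T0592500, on chromosome 3, followed with 11161 ± 2067 CPM, from 7782 in Ex Taq to 13672 in standard replicate 2.

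Some leading loci were far higher in a single library. OS08T0435900 averaged 8608 ± 3865 CPM, with 16651 CPM in low RT denaturation and 4675 to 9082 CPM in the other 6 libraries. OS07T0529600 averaged 7207 ± 3601 CPM, with 14873 CPM in Ex Taq and 4726 to 8179 CPM elsewhere. Each was first in the library where it was high, and without that library the means were 7268 and 5929 CPM. The next loci of the first 10 varied by a little over 2-fold without 1 library standing apart. OS01T0639900 averaged 10208 ± 2806 CPM, lowest in Ex Taq at 5941 CPM and highest in standard replicate 2 at 13222 CPM. OS01T0200700 averaged 9070 ± 2856 CPM, lowest in biotin only at 6021 CPM and highest in low RT reaction at 13264 CPM. OS03T0655400 averaged 8834 ± 2275 CPM, lowest in agarose at 5613 CPM and highest in low RT denaturation at 12109 CPM.

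The last of the first 10 were among the steady ones. OS01T0501800 averaged 7042 ± 791 CPM and ranged from 6226 CPM in biotin only to 8068 CPM in agarose. OS11T0242800 averaged 6427 ± 714 CPM and ranged from 5559 CPM in low RT denaturation to 7883 CPM in standard replicate 2. Both stayed within the first 10 of all 7 libraries. The next 20 loci had means from 5647 CPM (OS08T0200300) to 2825 CPM (OS01T0102900), with coefficients of variation (CV, the SD over the mean) from 0.0304 to 0.571. Low RT reaction was the highest library for 12 of the first 30 loci, and Ex Taq the lowest for 14. Over the 306 loci with a mean of at least 100 counts, the same libraries were highest for 79 and lowest for 95. Both extremes thus also occurred beyond the leading loci. They made up a larger share of the first 30 than of the 306, which include the first 30. Low RT reaction was also the lowest library for 78 of the 306 loci, and for 4 of the first 30.

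**Figure D2:**
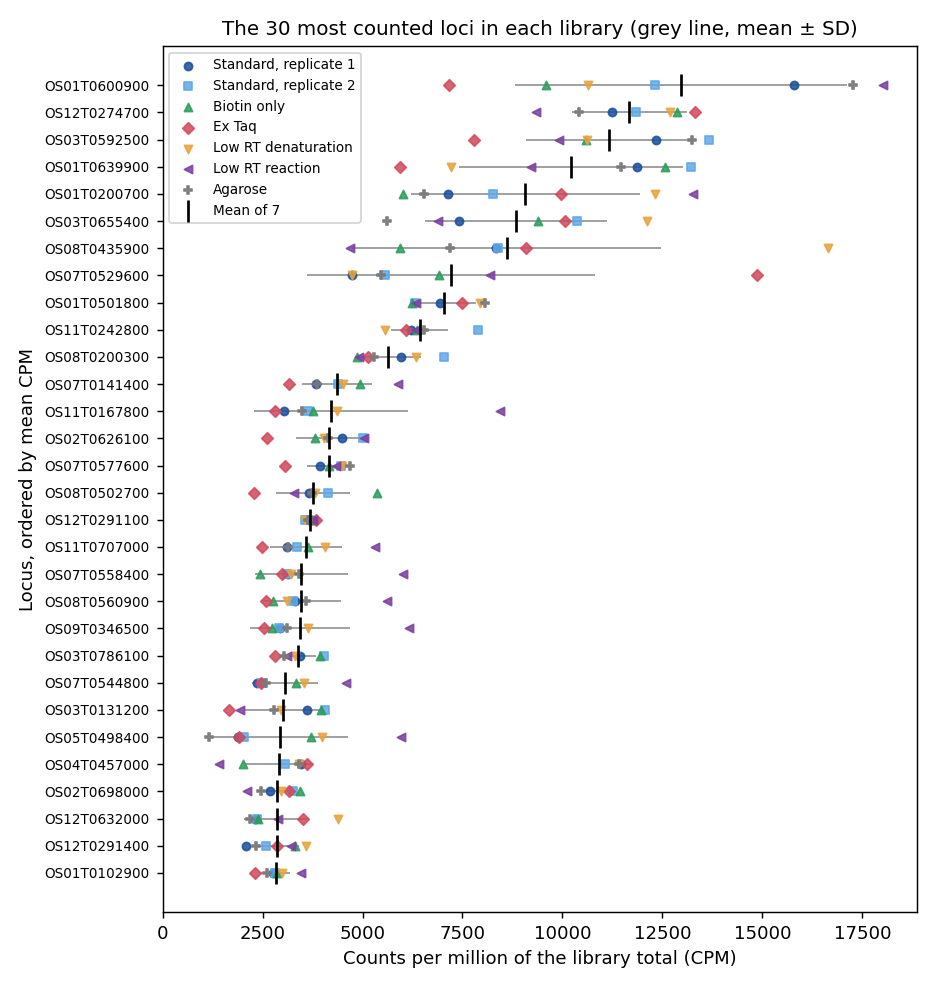
CPM (horizontal axis) of the 30 loci with the highest mean, 1 row per locus from the highest mean down, with 1 symbol per library, a black tick at the mean and a grey line for mean ± SD over the 7 libraries. OS08T0435900 and OS07T0529600 each have 1 library far to the right, at 16651 and 14873 CPM, while the points of OS12T0291100 lie between 3550 and 3847 CPM.

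Among the other 20 of the first 30, some loci stood apart upwards in low RT reaction. There OS11T0167800 had 8441 CPM against 2806 to 4351 CPM in the other 6 libraries. OS09T0346500 had 6157 CPM there against 2535 to 3646 CPM, OS07T0558400 had 6024 CPM against 2427 to 3411 CPM, and OS08T0560900 had 5614 CPM against 2599 to 3580 CPM. For each of the 4 loci the other libraries did not reach the value in low RT reaction. That protocol has 1 library, so the lower temperature and the single library cannot be told apart. In the other direction OS04T0457000 had 1408 CPM in low RT reaction and 2015 to 3609 CPM elsewhere, with a mean of 2913 ± 855 CPM.

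Steadiness was measured over the 306 loci with a mean of at least 100 counts, which held 40.2% of the counts. Their median CV over the 7 libraries was 0.242 (quartiles 0.185 and 0.338), while counting alone gives a median of 0.0813 at these totals. The spread in excess of counting, taken as the root of the difference of the squared CVs, had a median of 0.228. In all, 101 of the 306 loci had a CV below 0.2 and 21 had one of 0.5 or more. For 158 loci the highest library was at least 2-fold above the lowest, and for 16 loci at least 5-fold. The excess depended little on abundance, with a median of 0.218 at 100 to 200 counts, 0.253 at 200 to 500, 0.246 at 500 to 1000 and 0.198 for the 15 loci above 1000. Loci above 1000 counts were thus about as variable, beyond counting, as those with 100 to 200.

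**Figure D3:**
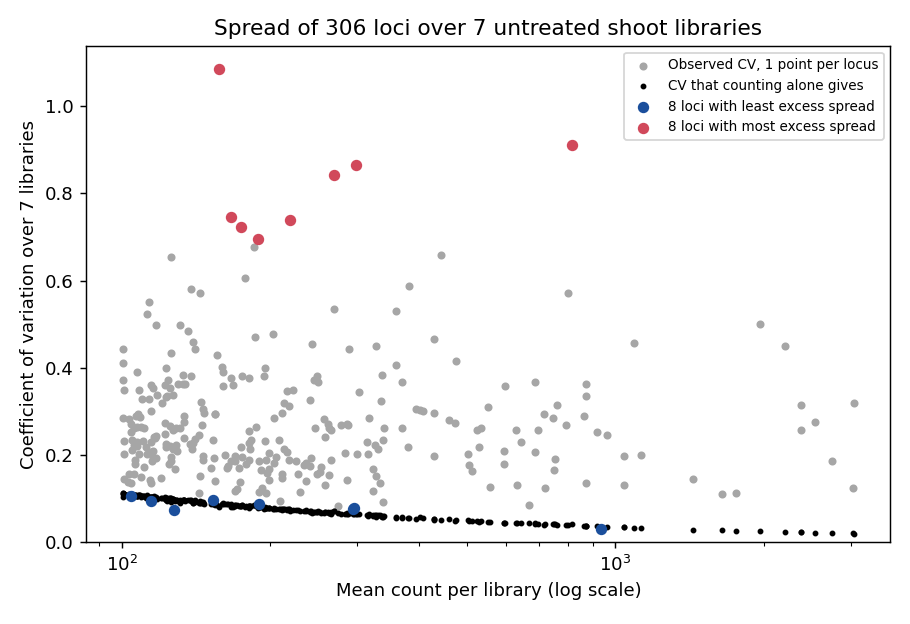
CV over the 7 libraries (vertical axis) against the mean count per library (log scale, horizontal axis) for the 306 loci with a mean of at least 100 counts. Grey points are observed CVs, with a median of 0.242, black points are the CVs that counting alone gives, and colours mark the 8 loci at each end of the excess spread.

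The steadiest loci were picked from the 306 by their low excess, so their values are a description. OS12T0291100, on chromosome 12, had 3740 and 3550 CPM in the standard replicates, 3725 in biotin only, 3847 in Ex Taq, 3562 in low RT denaturation, 3773 in low RT reaction and 3626 in agarose. Its mean was 3689 ± 112 CPM (SD, n = 7), and its CV of 0.0304 on plain library totals was below the 0.0361 that counting gives. That low CV may depend on the scaling, which was not tested. TMM factors, which rescale the library totals, ran from 0.927 in low RT reaction to 1.10 in agarose. CVs of single loci with such factors were not computed. A neighbour in the numbering, OS12T0291400, averaged 2857 ± 548 CPM and ranged from 2091 CPM in standard replicate 1 to 3598 CPM in low RT denaturation. Also in that stretch, OS12T0292400 averaged 2469 ± 323 CPM. The others with least excess were OS02T0634500 (501 ± 37.0 CPM), OS10T0525000 (449 ± 42.8 CPM), OS03T0815100 (421 ± 44.4 CPM), OS05T0447700 (744 ± 65.9 CPM), OS03T0827700 (594 ± 58.2 CPM), OS12T0188700 (1152 ± 87.3 CPM) and OS05T0496200 (1154 ± 91.3 CPM). For 4 of the 306 loci the CV was at or below that of counting.

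The low spread of these 8 loci was only partly seen in a second reading of the same libraries with the standard sequencing primer. There OS12T0291100 had a CV of 0.148, OS02T0634500 one of 0.350, OS03T0815100 0.280 and OS10T0525000 0.212. OS03T0827700 had 0.195 there, against 0.0979 with the custom primer, and OS12T0188700 had 0.124, against 0.0758. The CVs of OS05T0447700 and OS05T0496200 were 0.0778 and 0.0671 with the standard primer, against 0.0885 and 0.0791 with the custom primer. These are raw CVs, and the standard-primer totals were lower, from 50816 to 285714 counts. For OS02T0634500 the mean was lower too, 282 CPM against 501 CPM. For OS12T0291100 the mean was higher, 5865 CPM against 3689 CPM. The part of each CV due to counting is not given for that reading, so counting error and other spread are not separated here.

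At the other end, the 8 loci with most excess spread varied 6.79-fold to 59.8-fold between their highest and lowest libraries, and they did not share 1 pattern. OS06T0693200, on chromosome 6, had 2028 and 1636 CPM in the standard replicates and 890 CPM in agarose, against 376 CPM in biotin only, 100 in Ex Taq, 73.4 in low RT denaturation and 92.4 in low RT reaction. Its mean was 742 ± 805 CPM, with agarose the nearest library to it. OS01T0673600 and OS01T0776700, both on chromosome 1, were also highest in the standard replicates, with 1618 and 1357 CPM for the first and 1223 and 1612 CPM for the second. Their lowest values were in Ex Taq, at 210 and 237 CPM.

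OS07T0512200, on chromosome 7, split the libraries another way. It had 5343 CPM in biotin only, 5996 in Ex Taq and 4759 in low RT denaturation, against 829 and 881 CPM in the standard replicates, 691 in low RT reaction and 637 in agarose. No library lay between 881 and 4759 CPM, and the locus ranked from 10 to 180. OS06T0163450 was highest in Ex Taq at 2514 CPM and lowest in standard replicate 2 at 294 CPM. OS07T0142100 was at 1807 CPM in low RT reaction and between 222 and 679 CPM in the other 6.

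OS08T0387300 and OS02T0727966 were highest in biotin only and lowest in low RT reaction. OS08T0387300 had 3097 CPM in biotin only, 1574 in agarose, 1026 and 635 in the standard replicates, 1166 in Ex Taq, 477 in low RT denaturation and 51.7 in low RT reaction, where the value rests on 14 counts. OS02T0727966 had 1908 CPM in biotin only, 1734 in agarose, 1199 and 644 in the standard replicates, 706 in Ex Taq, 272 in low RT denaturation and 118 in low RT reaction. All 8 loci stayed variable in the standard-primer reading, with CVs from 0.492 to 0.973. Those readings come from the same libraries, so they are no further replicates.

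**Figure D4:**
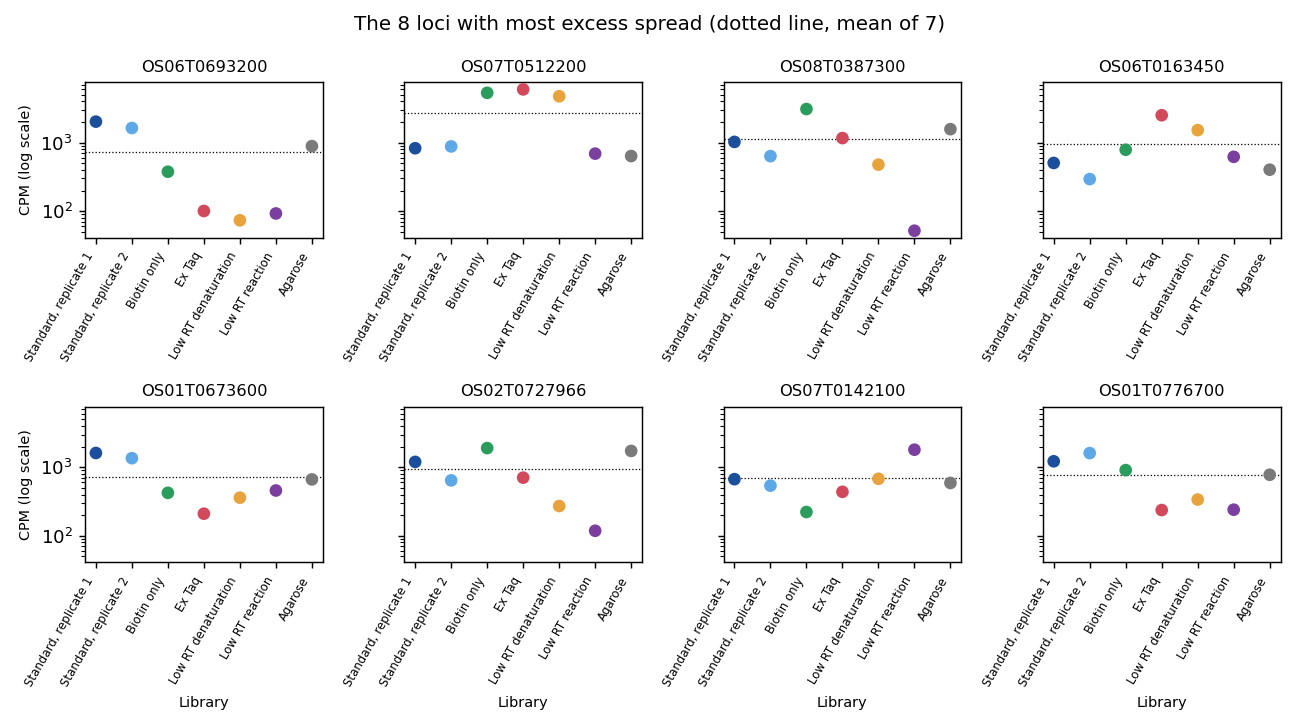
CPM (log scale, vertical axis) of the 8 loci with most excess spread in each of the 7 libraries (horizontal axis), 1 panel per locus, with a dotted line at the mean. OS06T0693200 runs from 73.4 to 2028 CPM and OS07T0512200 lies between 4759 and 5996 CPM in 3 libraries and between 637 and 881 CPM in 4.

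A single pair of the variable loci kept 1 ratio over the libraries. Among the 21 loci with a CV of 0.5 or more there are 210 pairs, and the counts of a pair were compared over the 7 libraries by the chi-square per degree of freedom of their 2 rows, which is near 1 where they keep 1 ratio. At a given departure from 1 ratio this value grows with the counts, so pairs of unlike counts are not directly comparable. The median was 84.0. The next lowest pair, OS04T0338100 and OS01T0943800, both also highest in Ex Taq, was at 3.36, and only 1 of the 210 was below 2. That pair was OS06T0151850 and OS01T0666101, at 0.555, on chromosomes 6 and 1. The pair was not isolated, since OS06T0163450, described above, stood at 3.87 with the first and 4.17 with the second, far below the median. All of them were highest in Ex Taq. OS06T0151850 had 56 and 87 counts in the standard replicates, 209 in biotin only, 485 in Ex Taq, 312 in low RT denaturation, 155 in low RT reaction and 23 in agarose. OS01T0666101 had 44, 90, 201, 463, 315, 151 and 32 counts in the same libraries. These 2 loci and the comparison of pairs were chosen after the values were seen. Reads shared by both loci and separate RNAs cannot be told apart here, so the pair is not taken as independent.

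The libraries were not equally far from each other. Between the standard replicates, 2 of the 306 loci were at least 2-fold apart (on CPM + 1), and the median absolute log2 ratio was 0.17, where counting alone gives 0.12. Agarose came next, with 5 loci 2-fold apart from standard replicate 1 and 9 from standard replicate 2, and median absolute log2 ratios of 0.19 and 0.23, where counting alone gives 0.15 and 0.13. The other pairs of libraries had 13 to 77 such loci. The highest numbers were 77 between Ex Taq and low RT reaction and 70 between biotin only and low RT reaction, with median absolute log2 ratios of 0.58 and 0.48. Pearson's r of log2(CPM + 1) across the 306 loci was 0.968 between the standard replicates and 0.724 to 0.961 over the other pairs. Loci are not independent replicates, and r is given as a description. Low RT reaction was the highest library for 79 of the 306 loci and the lowest for 78, while Ex Taq was the lowest for 95. Biotin only was the highest for 69.

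**Figure D5:**
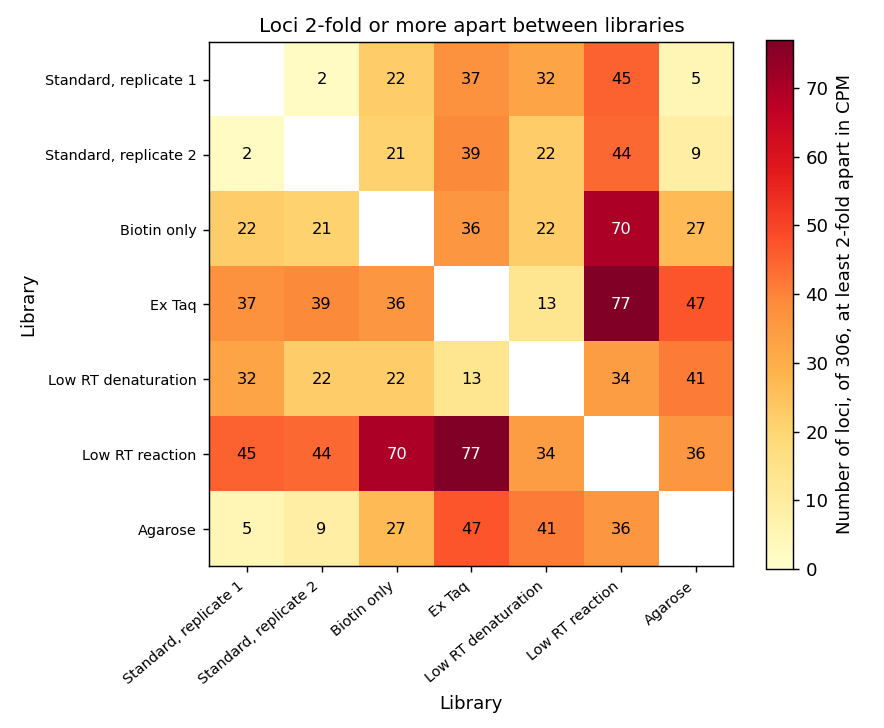
Number of the 306 loci with a mean of at least 100 counts that differ at least 2-fold in CPM between each pair of the 7 libraries (rows and columns, colour and printed number). The standard replicates and agarose differ at 2 to 9 loci, and low RT reaction differs from the other 6 libraries at 34 to 77.

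Of the first 30 loci, 16 are listed with more than 1 transcript, and the leading transcript took between 35.5% and 95.2% of the locus. OS12T0274700 had 52.7% ± 1.80 of its counts on 1 of 2 transcripts, OS03T0786100 50.7% ± 1.36, and OS11T0707000 had 35.5% ± 1.43 on the leading 1 of 3 (SD, n = 7 each). The SD of these 3 shares was under 2 percentage points. OS12T0291100 was less even, with 74.3% ± 4.84 on 1 of 2 transcripts, and OS05T0498400 had 95.2% ± 3.34. The counting rule for reads that match several transcripts is not given in the sources used here, so the shares are not read as the use of isoforms, and sums per locus were used throughout. Transcripts with the suffix 00 make up 12005 of the 42132 listed and took 4.79% ± 0.232 of the counts (SD, n = 7), and none of the first 30 loci had one as its main transcript.

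The place of a locus in the order depended on the reading, and the dependence followed the number of transcripts listed. Over the 306 loci, the mean CPM of the custom-primer reading over that of the standard-primer reading had a median of 1.56 for 157 loci with 1 transcript. It was 0.905 for 94 loci with 2 transcripts, 0.678 for 44 loci with 3, and 0.498 for 11 loci with 4 or more. Among the first 30 loci the ratio was above 1 for 12 of the 14 loci with 1 transcript and for 1 of the 16 with several. OS02T0698000, with 3 transcripts, had 2867 ± 475 CPM with the custom primer and 5197 ± 1120 with the standard primer (SD, n = 7 each). OS01T0639900, with 1 transcript, had 10208 ± 2806 and 6129 ± 1600 CPM. Of the 45 loci named by rule, 28 had means that differed more than 1.5 times between the readings. Whether the 2 tables treat reads with several matches in different ways was not tested. OS09T0346500 is listed with 1 transcript and still had a lower value with the custom primer, 3435 ± 1249 CPM against 5522 ± 1681 CPM. The first 3 loci were the same in both readings, as were 8 of the first 10 and 23 of the first 30.

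By the chromosome number in the identifier, chromosome 1 held 16.7% ± 0.580 of the counts and 13.9% of the loci listed, and chromosome 3 held 14.8% ± 0.371 of the counts and 12% of the loci. Chromosome 10 held 3.64% ± 0.101 of the counts and 5.56% of the loci, and none of the first 30 loci. Chromosome 7 held 9.41% ± 0.590 of the counts and 7.65% of the loci, and chromosome 6 held 6.77% ± 0.218 of the counts and 8.33% of the loci. Chromosomes 1 and 7 each held 5 of the first 30 loci, and chromosome 6 none. Every chromosome's share varied by less than 0.6 percentage points (SD, n = 7).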

How the data were processed

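For each sequencing primer the authors deposited 1 table of raw counts (whole numbers) of transcripts by library. Cutadapt and Bowtie2 are named, per the submitters' processing notes, without versions. The build, annotation and rule for reads with several matches were not stated. Columns outside the labels numbered 0. Libraries were chosen by their labels, and counts were summed per locus (identifier before the dash) and divided by the library total. Totals ran from 106715 to 337468 counts, which sets the counting error.

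The design holds 1 condition, so no groups were tested against each other and no p-value is given. Sets of 7 values were screened for a far value by Dixon's ratio against its 95% critical value, and pairs of loci were described by a chi-square per degree of freedom. Mean, SD, CV and the Poisson CV were computed with Python 3.11.15, numpy 2.4.6, pandas 2.3.3 and scipy 1.17.1; thinning was by formula. TMM and RLE factors came from edgeR 4.0.16 in R 4.3.3. The excess CV was tested on simulated counts, and the thinning formula against counts drawn from a library. The other calculations were not tested in this way.

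The rule for naming took the 30 loci with the highest mean CPM and, of loci with a mean of at least 100 counts, the 8 with the lowest and the 8 with the highest excess squared CV, 45 loci in all. Members, lists and rules were chosen with earlier results of these data known. Planned lists of genes by function and levels per coding length were not run, because 1 of 35679 identifiers was in the RefSeq table (assembly ASM3414082v1) and no lengths were at hand. A planned limit of 4 unnamed identifiers was set aside for the same reason. Loci outside the rule (OS12T0292400, OS06T0151850, OS01T0666101, OS04T0338100 and OS01T0943800) were chosen after their values were seen.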

Additional observations from a re-analysis of the deposited data

Results flagged for a closer look

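Of 48 sets of 7 values screened (45 named loci, detection at equal depth, the share of the first 10 loci and the number of loci that hold 50% of the counts), 8 had a value far from the other 6, where Dixon's ratio (the gap to the nearest value over the whole range) was above its 95% critical value for 7 samples. For a set taken at random chance gives about 1 in 20. That rate does not apply to these sets, because the loci were chosen by the mean and the spread of the same 7 values, are not independent, and come from libraries not made alike. All 8 values were high, and 5 of them were in low RT reaction. In that library OS11T0167800 had 8441 CPM, OS09T0346500 6157 CPM, OS07T0558400 6024 CPM, OS08T0560900 5614 CPM and OS07T0142100 1807 CPM. OS08T0435900 had 16651 CPM in low RT denaturation, and OS07T0529600 had 14873 CPM in Ex Taq. OS11T0242800 had 7883 CPM in standard replicate 2, where the other 6 libraries had 5559 to 6541 CPM.

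The same library was the highest in the standard-primer reading for all 8 loci. OS08T0435900 had 19153 CPM there in low RT denaturation and 5097 to 9979 CPM in the others, and OS07T0529600 had 17703 CPM in Ex Taq and 5831 to 9828 CPM in the others. OS11T0242800 had 5082 CPM in standard replicate 2 and 3577 to 4369 CPM in the others. A second reading is of the same library, so it does not separate the protocol step from the single library.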

How the results depend on the processing

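Leaving out each library in turn gave 9.31% to 9.57% of counts in the 10 most counted loci, 592 to 630 loci for 50% of the counts, 13569 to 13645 loci at equal depth, a median CV of 0.210 to 0.260 and 28 or 29 of the first 30 loci. The share of the first 10 was 10.2% in the standard-primer readings, 11.2% over loci with 1 transcript, where the total is smaller by construction, and 7.67% for transcripts in place of loci. With no minimum count the median CV was 0.746, since loci of few counts enter. TMM and RLE factors kept all 30 of the first loci, with median CVs of 0.262 and 0.253. Pooled counts kept 29, the sum of both readings 26 and the standard-primer readings 23, while 14 of the 30 are listed with 1 transcript. Of 45 mean CPM values, 28 moved over 1.5 times in the standard-primer readings, up to 2.33 times (OS01T0673600), and none did with any 1 library left out. The 24 of them listed with 1 transcript moved up to 1.76 times when other loci were left out, by the smaller total. The agarose library was too shallow with the standard primer for the common depth, and the other 6 gave 12873 loci. Detection over loci with 1 transcript, gene lists and values per coding length were not run. No paired analysis was possible because no groups were compared.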
